A study of Mus musculus with 2 samples.

Results

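Oxidative phosphorylation genes were taken by symbol from the 31053 genes counted in 2 single-cell libraries of mouse spleen dendritic cells. The set held every symbol that begins with Ndufa, Ndufb, Ndufc, Ndufs, Ndufv, Uqcr, Cox4, Cox5, Cox6, Cox7, Cox8, Atp5 or mt-, together with Sdha, Sdhb, Sdhc, Sdhd, Cyc1 and Cycs, and left out the assembly factors named Ndufaf. It came to 100 genes, of which 87 are nuclear and 13 lie on the mitochondrial genome. The nuclear members comprised 36 of complex I, 4 of complex II, 9 of complex III, cytochrome c itself, 19 of complex IV, 16 of complex V and 2 others, Cox7a2l and Atp5s. They lie on 19 chromosomes of GRCm38. The mitochondrial genome carries 7 members of complex I, 1 of complex III, 3 of complex IV and 2 of complex V. At 0 UMIs in the kept cells were 4 identifiers, Cox7b2, Cox8b, Cox8c and a second identifier listed for Atp5o.

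Oxidative phosphorylation makes ATP in the inner membrane of the mitochondrion. Complexes I and II pass electrons from NADH and succinate to ubiquinone, complex III passes them to cytochrome c, and complex IV hands them to oxygen. Complexes I, III and IV pump protons, and complex V, the ATP synthase, makes ATP from their return. The core of the chain is built from subunits of both genomes, while complex II is wholly nuclear. In dendritic cells, activation by microbial products is known to shift metabolism towards glycolysis.

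Mice of both groups carried both alleles, Il7r-cre and Rosa26-lsl-tdTomato, were naive and kept under SPF conditions, and gave their spleens at an age of 7 to 9 weeks. L-cDC were tdTomato-positive and M-cDC tdTomato-negative conventional dendritic cells, sorted by flow cytometry after magnetic enrichment for CD11c. The reporter stays on in any cell whose history includes Il7r-cre activity, a mark of lymphoid progenitors. It records that activity at any time, and when it came on in these cells was not tested. How many mice were pooled is not given in the labels. The comparison asks how dendritic cells with and without a history of Il7r-cre activity, taken as lymphoid and other origin, differ in expression. With 1 library in each group there is no replicate check and no test, intervals are 95% and cover counting error only, and a 1.5-fold ratio serves as a fixed size for counting genes.

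The L-cDC library held 4939 cell barcodes and 40170515 UMIs, and the M-cDC library held 6674 barcodes and 52973960 UMIs. After filtering, 3943 and 5600 cells were kept, with medians of 8573 and 7664 UMIs. The filter removes barcodes with over 10% mitochondrial UMIs, so the 13 mitochondrial members took part in choosing the cells: it took out 621 barcodes in L-cDC and 653 in M-cDC. The 2 libraries shared 6 barcodes, of which 4 were kept in each. Cells were clustered without the 100 members among the variable genes, and clusters were named from marker lists. The cDC1-like class held 209 L-cDC and 729 M-cDC cells, with Xcr1 at 525 and 567 CPM (counts per 1000000 UMIs of a class and library), and the cDC2-like class held 126 and 698 cells, with Sirpa at 207 and 228 CPM. The mature-like class, clusters with high Ccr7 (1206 and 1417 CPM) and Fscn1, held 2498 and 2869 cells, and the cycling-like class, with Mki67 at 554 and 592 CPM, held 75 and 269 cells. A cluster led by Cd209d, with markers of cDC2 and of plasmacytoid dendritic cells, held 189 and 135 cells. L-cDC also held an NK cell-like cluster of 199 cells and a B cell-like cluster of 53 cells, in which M-cDC had 1 and 0 cells. A mature-like cluster led by Mucl1 and Calm4 held 355 L-cDC cells and 1 M-cDC cell.

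The promoters of 68 of the 86 nuclear symbols were matched in a RefSeq table of GRCm38.p6 that gives 300 bases, 250 before and 50 after each gene's start. Searched on both strands were 3 motifs, that of NRF1, an activator of respiratory genes (GCGC repeated after a gap of any 2 bases), CCGGAAG, bound by ETS factors such as GABP, and AANATGGCG, bound by YY1. The NRF1 motif stood in 19 of the 68 promoters (27.9%), against 7.00% of all 27025 promoters and 15.3% of those of 9351 genes with 50 or more UMIs. The ETS motif stood in 16 (23.5%), against 9.93% and 21.1%, and the YY1 motif in 10 (14.7%), against 2.76% and 6.30%. The promoters shown belong to members whose levels differed between mature-like and cDC1-like cells below. Cox5a, Ndufb4 and Ndufv2 were higher in the mature-like class, Ndufv2 not in each of its clusters, and Cycs was lower. Capitals mark NRF1 motifs, of which Ndufb4 (chr16:37654319-37654618, minus strand) had 3 and Ndufv2 (chr17:66101510-66101809, minus strand) had 2 that overlap. In the windows of Cox5a (chr9:57520982-57521281, plus strand) and Cycs (chr6:50566520-50566819, minus strand) the letters of none of the 3 motifs were found. Only exact letters were counted, so these windows may hold sites that differ from a motif by a base.
Cox5a: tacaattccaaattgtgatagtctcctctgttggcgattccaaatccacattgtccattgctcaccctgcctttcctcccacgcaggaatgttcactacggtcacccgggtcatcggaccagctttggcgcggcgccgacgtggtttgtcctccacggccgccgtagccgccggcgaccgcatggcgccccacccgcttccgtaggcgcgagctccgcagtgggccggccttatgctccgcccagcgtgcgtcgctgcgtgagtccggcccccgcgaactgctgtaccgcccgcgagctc
Ndufb4: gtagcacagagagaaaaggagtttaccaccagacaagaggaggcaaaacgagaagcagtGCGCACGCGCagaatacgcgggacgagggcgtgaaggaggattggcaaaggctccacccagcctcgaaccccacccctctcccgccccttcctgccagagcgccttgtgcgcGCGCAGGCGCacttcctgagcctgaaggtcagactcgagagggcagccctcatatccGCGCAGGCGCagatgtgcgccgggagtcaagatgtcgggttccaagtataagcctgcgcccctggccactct
Ndufv2: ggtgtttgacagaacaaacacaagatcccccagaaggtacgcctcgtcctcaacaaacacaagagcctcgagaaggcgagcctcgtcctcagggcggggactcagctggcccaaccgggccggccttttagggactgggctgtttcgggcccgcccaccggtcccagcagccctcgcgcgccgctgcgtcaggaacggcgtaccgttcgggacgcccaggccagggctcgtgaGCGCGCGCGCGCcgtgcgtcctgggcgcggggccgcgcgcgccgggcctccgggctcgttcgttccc
Cycs: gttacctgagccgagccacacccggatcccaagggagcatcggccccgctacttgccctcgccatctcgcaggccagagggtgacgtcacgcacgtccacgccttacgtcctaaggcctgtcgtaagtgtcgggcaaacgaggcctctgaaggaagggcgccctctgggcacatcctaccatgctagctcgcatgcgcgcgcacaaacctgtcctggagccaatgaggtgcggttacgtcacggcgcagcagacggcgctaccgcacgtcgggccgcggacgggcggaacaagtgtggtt

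The nuclear members together took the smallest share of UMIs in mature-like cells and the largest in cycling-like cells among the 5 dendritic cell classes compared. Their share was 1.58% in L-cDC and 1.501% in M-cDC for mature-like cells, 2.33% and 2.28% for cycling-like cells, 2.01% and 1.98% for cDC1-like cells, 1.93% and 2.04% for the cluster led by Cd209d, and 1.84% and 1.79% for cDC2-like cells. The 2 libraries thus gave the same lowest and highest class, while the cluster led by Cd209d stood below cDC1-like cells in L-cDC and above them in M-cDC. Unnamed clusters were left out of these classes. Among them, the cluster led by Dkk2 and Crispld2 had 1.53% and 1.45%, below the mature-like class in both libraries. The cluster led by Mmp12 and Mgl2 had 1.58% and 1.65%, and that led by Ppp1r1a and Ttc36 had 2.19% and 2.05%. The mitochondrial members followed another order. They took 3.85% and 3.61% of UMIs in cDC2-like cells, between 3.03% and 3.28% in cDC1-like cells, cycling-like cells and the cluster led by Cd209d, and 2.86% and 2.67% in mature-like cells. As a ratio, cDC2-like cells had 2.10 and 2.02 mitochondrial UMIs for each nuclear member UMI in L-cDC and M-cDC, mature-like cells 1.81 and 1.78, cDC1-like cells 1.503 and 1.55, and cycling-like cells 1.3499 and 1.39. Outside the dendritic cells, the nuclear share was 2.21% in the NK cell-like cluster and 1.86% in the B cell-like cluster of L-cDC, and their mitochondrial shares were 4.07% and 4.89%.

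**Figure D1:**
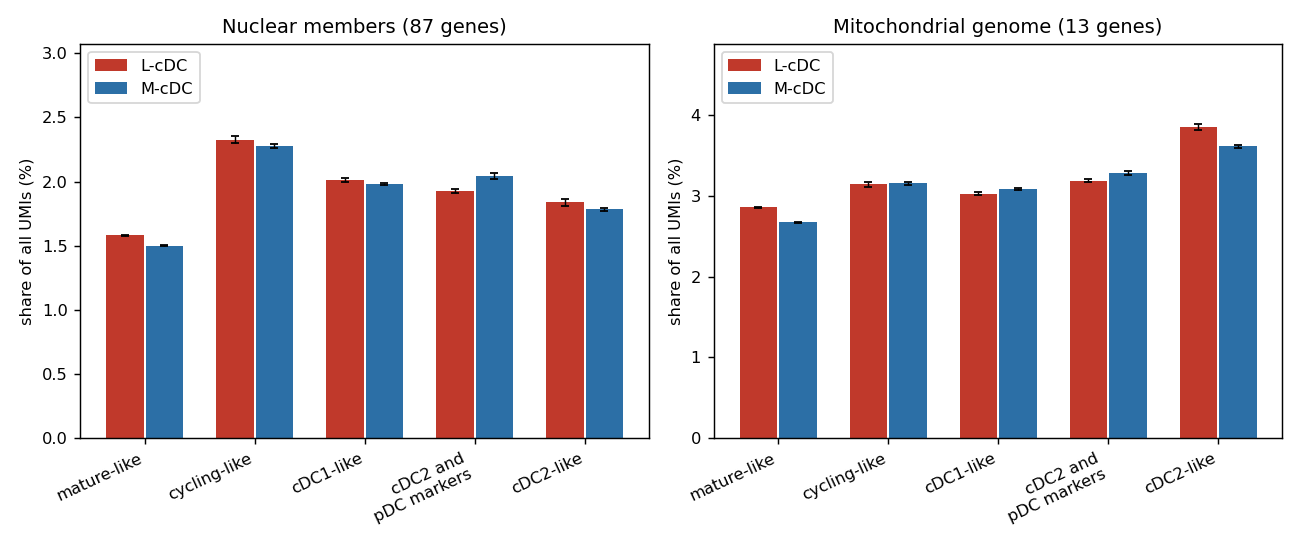
Share of all UMIs (%) taken by the 87 nuclear members (left) and the 13 mitochondrial members (right) in 5 classes, with L-cDC bars left of M-cDC bars and error bars of the 95% counting interval. Among these classes, mature-like cells had the lowest nuclear share in both libraries (1.58% and 1.501%) and cDC2-like cells the highest mitochondrial share (3.85% and 3.61%).

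In mature-like cells most nuclear members were lower than in cDC1-like cells, in both libraries, and cytochrome c stood farther below than any complex as a sum. Cycs, the soluble electron carrier between complexes III and IV, had 67.7 CPM in L-cDC and 68.7 in M-cDC mature-like cells, against 239 and 277 CPM in cDC1-like cells. The summed log2 ratio of mature-like over cDC1-like cells was -0.57 in L-cDC and -0.69 in M-cDC for complex I, -0.65 and -0.78 for complex II, -0.48 and -0.53 for complex V, and -0.25 and -0.27 for complex III. For complex IV it was -0.04 and -0.03, and without its member Cox5a it was -0.20 in both. Of 77 nuclear members with enough counts, 39 (50.6%) were more than 1.5-fold lower in both libraries and 3 (3.896%) more than 1.5-fold higher, against 30.7% and 25.1% of 5154 genes considered. The median log2 ratio over the 77 was -0.66, and over all genes considered it was -0.10. The 10 other nuclear members had too few counts.

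Malat1 and the ribosomal protein genes differed between these classes as well. Malat1, a nuclear noncoding RNA, took 8.79% and 9.54% of UMIs in mature-like cells and 2.78% and 2.89% in cDC1-like cells, and ribosomal protein genes took 18.1% and 16.9% against 30.6% and 27.8%. Scaled to UMIs other than Malat1 and Neat1, a choice made after seeing the data, 31 members were lower and 3 higher, against 27.3% and 27.4% of all genes, and complex IV turned to 0.05 in L-cDC and 0.07 in M-cDC. Scaled to UMIs other than mitochondrial, ribosomal protein and immunoglobulin genes, 53 were lower and 1, Cox5a, was higher, against 40.5% and 18.6% of all genes, while Ndufv2 and Ndufb4 were each within 1.5-fold in 1 library or both. In that scaling the median over all genes was -0.41 and 1 of 13 mitochondrial members was lower. Their part in the result was not tested.

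**Figure D2:**
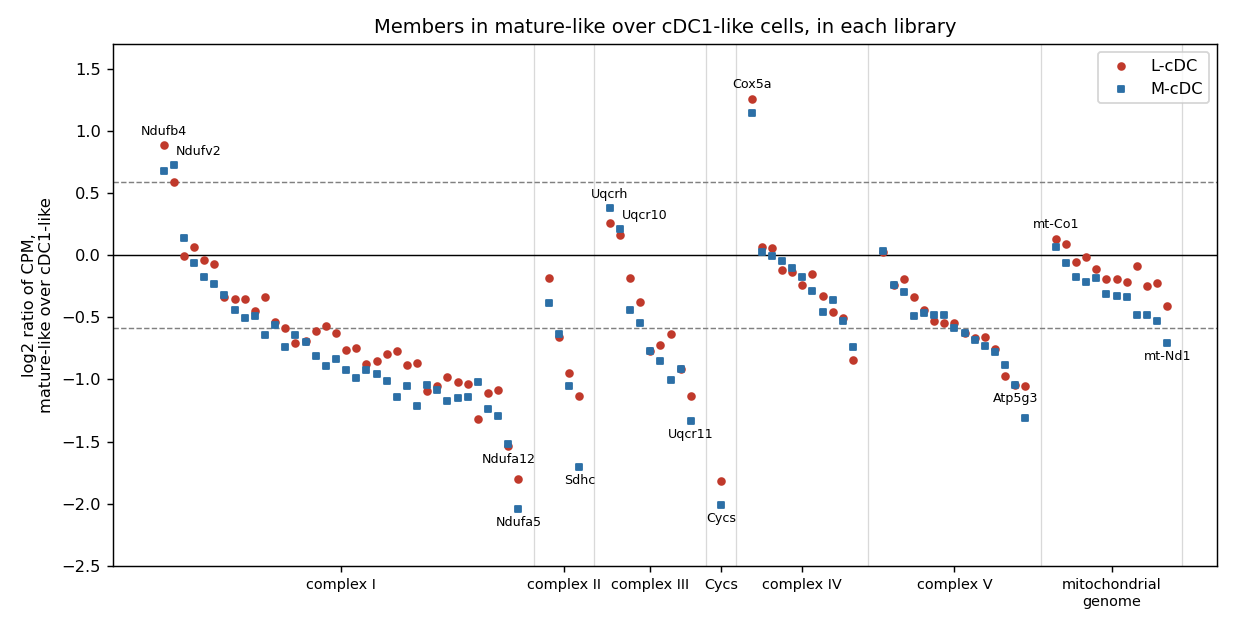
Log2 ratio of CPM in mature-like over cDC1-like cells for each member with enough counts, grouped by complex and ordered by the mean of the 2 libraries, with L-cDC as circles, M-cDC as squares and dashed lines at 1.5-fold. Cycs and Ndufa5 lie near -2, while Cox5a, Ndufb4 and Ndufv2 lie above the upper line in both libraries.

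Complex I holds the NADH-oxidising module and many accessory subunits. Of its 36 nuclear members 22 were past 1.5-fold lower and 2 higher, against 30.7% and 25.1% of all genes. Ndufa5, an accessory subunit of the matrix arm, had 23.5 CPM in L-cDC and 16.6 in M-cDC mature-like cells, against 82.2 and 68.3 CPM in cDC1-like cells. Ndufa12, another accessory subunit, had 47.9 and 49.5 CPM against 139 and 142 CPM. Ndufab1, the mitochondrial acyl carrier protein that is also a subunit of complex I, had 57.8 and 59.6 CPM against 125 and 141 CPM. The core subunits of the matrix arm did not move as a block. Ndufv1, which binds NADH, had 19.3 and 20.4 CPM against 35.7 and 42.4 CPM, whereas its partner Ndufv2 had 175 and 224 CPM against 117 and 136 CPM. Ndufb4, an accessory subunit of the membrane arm, was the other higher member, with 220 and 173 CPM against 119 and 108 CPM. Ndufa1 and Ndufa11, both accessory subunits, differed little: Ndufa1 had 162 and 134 CPM against 163 and 122 CPM.

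Complex II, succinate dehydrogenase, also belongs to the citric acid cycle. Of its 4 subunits 3 were past 1.5-fold lower, against 30.7% of all genes. Sdhc, a membrane anchor, had 13.9 and 11.7 CPM in mature-like cells of L-cDC and M-cDC, against 30.4 and 38.1 CPM in cDC1-like cells. The iron-sulfur subunit Sdhb had 46.6 and 49.1 CPM against 89.8 and 102 CPM, and the other anchor Sdhd had 52.5 and 54.6 CPM against 82.8 and 84.7 CPM. The flavoprotein Sdha stayed inside 1.5-fold, with 61.3 and 62.9 CPM against 69.6 and 82.2 CPM.

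In complex III 5 of 9 members were lower and none higher, against 30.7% and 25.1% of all genes. Uqcr11, a small accessory subunit, had 93.9 and 69.1 CPM in mature-like cells, against 206 and 174 CPM in cDC1-like cells. Cyc1, the cytochrome c1 that reduces cytochrome c, had 38.3 and 43.0 CPM against 63.2 and 77.5 CPM, and Uqcrfs1, the Rieske protein, had 90.2 and 96.7 CPM against 154 and 165 CPM. Uqcrb and Uqcrc1 were the other lower members. The hinge protein Uqcrh leaned the other way inside 1.5-fold, with 722 and 690 CPM against 602 and 531 CPM.

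Complex IV stood apart in its counts: of 11 members with enough UMIs 1 was lower, Cox7b, and 1 higher, Cox5a. Cox5a, a nuclear subunit that faces the matrix, had 872 CPM in L-cDC and 922 in M-cDC mature-like cells, against 364 and 417 CPM in cDC1-like cells, a log2 ratio of 1.26 and 1.15. Cox7b had 246 and 253 CPM against 443 and 423 CPM. Cox4i1, the common form of subunit 4, had 837 and 838 CPM against 802 and 825 CPM. In complex V, 7 of 15 members were lower and none higher. Of all genes 30.7% were lower and 25.1% higher. Atp5o, part of the stalk that holds the catalytic head, had 94.0 and 92.5 CPM against 195 and 230 CPM. All 3 genes of the c ring were lower, and Atp5g3 among them had 105 and 118 CPM against 216 and 244 CPM. The membrane subunit Atp5l had 677 and 624 CPM against 667 and 610 CPM.

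**Figure D3:**
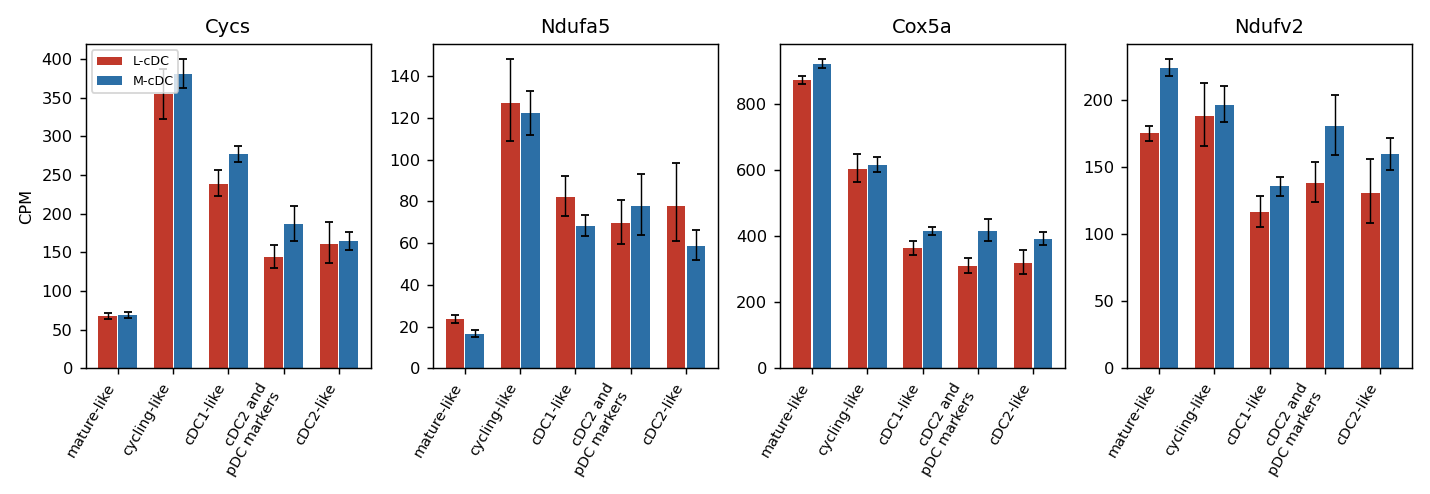
CPM of Cycs, Ndufa5, Cox5a and Ndufv2 in 5 classes, with L-cDC left of M-cDC and error bars of the 95% counting interval. Cycs and Ndufa5 are lowest in mature-like cells in both libraries, and Cox5a is highest there.

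The pattern was read again in each mature-like cluster, which gave 13 values over the 2 libraries. Cycs lay between 48.9 and 118 CPM in them and Ndufa5 between 14.02 and 37.3 CPM, so every value was below both cDC1-like values. Cox5a lay between 483 and 1417 CPM and Ndufb4 between 146 and 270 CPM, every value above both cDC1-like values. Ndufv2 ranged between 106 and 434 CPM and overlapped with cDC1-like cells. Its highest values were in the cluster led by Txndc17 and Scin, in which Malat1 was at 0.238% and 0.156% of UMIs. Without that cluster, an alternative added after seeing the data, Ndufv2 no longer passed 1.5-fold in both libraries (log2 ratios 0.47 in L-cDC and 0.55 in M-cDC), and 41 members were lower and 2 higher. Nuclear members took 2.33% and 2.24% of UMIs in that cluster and between 1.33% and 1.71% in the other mature-like clusters. At the other end, an unnamed cluster led by Paqr3 and Uchl4 had Malat1 at 31.8% and 33.6%, nuclear members at 0.329% and 0.277% and mitochondrial members at 5.23% and 5.33%.

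**Figure D4:**
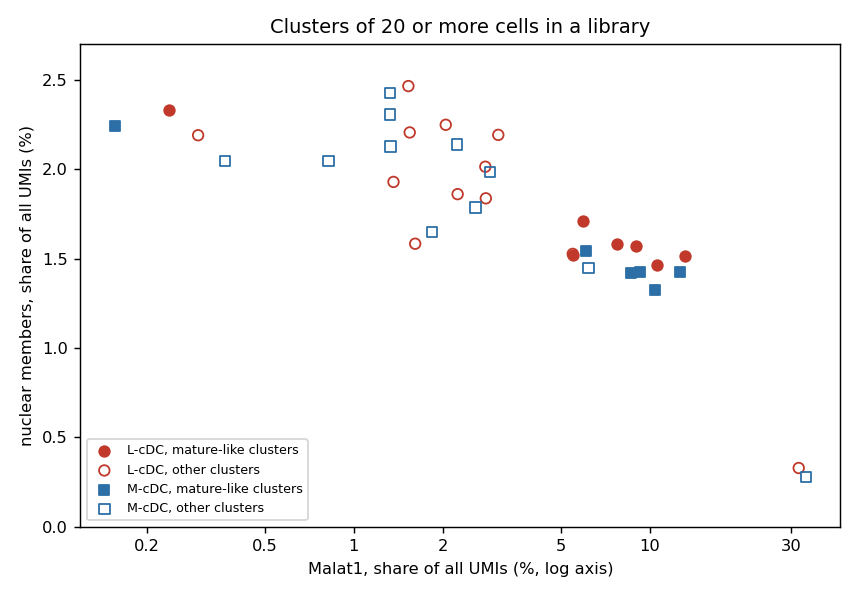
Nuclear members' share of UMIs (%) against that of Malat1 (%, log axis) for each cluster with 20 or more cells in a library, circles for L-cDC and squares for M-cDC, filled for mature-like clusters. Most filled points have Malat1 above 5% and nuclear members below 1.75%. The pair at the far left is the mature-like cluster led by Txndc17 and Scin.

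The 13 mitochondrial members differed less between mature-like and cDC1-like cells. Their summed log2 ratio was -0.08 in L-cDC and -0.21 in M-cDC, and none of the 12 with enough UMIs passed 1.5-fold in both libraries. Without Malat1 and Neat1 in the scaling it turned to 0.01 in L-cDC and stayed below 0 in M-cDC, at -0.10. The lowest ratio was that of mt-Nd1, which encodes a membrane subunit of complex I, with 1074 and 872 CPM in mature-like cells against 1423 and 1425 CPM in cDC1-like cells. It was past 1.5-fold in M-cDC, with a log2 ratio of -0.71, and within it in L-cDC, at -0.41. The complex IV gene mt-Co1 had 5823 and 5383 CPM against 5307 and 5130 CPM. Reads of mt-Atp8 and mt-Atp6, and of mt-Nd4l and mt-Nd4, come from shared transcripts with overlapping genes, so their separate counts are uncertain.

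Set against cDC2-like cells, mature-like cells again had lower complex I and cytochrome c, and here the mitochondrial members were lower too. Of 77 nuclear members 25 (32.5%) were past 1.5-fold lower in both libraries and 1 higher, against 35.2% and 16.7% of 5358 genes, and the medians were -0.47 for the members and -0.38 for all genes. The share of lower nuclear members was thus near the background, and 19 of the 25 belonged to complex I. Cox5a was the higher member, with 872 and 922 CPM in mature-like cells of L-cDC and M-cDC, against 320 and 393 CPM in cDC2-like cells. Cycs was at 161 and 164 CPM in cDC2-like cells, a log2 ratio of -1.25 and -1.26. Ndufa5 had 77.9 and 58.7 CPM there and again the lowest ratio of complex I, -1.73 and -1.82. Uqcr11 and Cyc1 of complex III, Sdhb of complex II, and Atp5o and Atp5g1 of complex V were the lower members outside complex I besides Cycs. Complex IV as a sum was slightly higher, with log2 ratios of 0.09 and 0.11, and without Cox5a it was -0.07 and -0.05.

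All 13 mitochondrial members lay below 1 in mature-like over cDC2-like cells, with a median log2 ratio of -0.65, against -0.38 over all genes. In both libraries 6 of the 13 (46.2%) were past 1.5-fold lower, against 35.2% of all genes. The 6 were mt-Nd1, mt-Nd2, mt-Nd4l and mt-Nd5 of complex I, mt-Cytb of complex III and mt-Atp8 of complex V. The gene mt-Nd2 had 840 and 650 CPM in mature-like cells, against 1575 and 1396 CPM in cDC2-like cells. The cytochrome b gene mt-Cytb had 2008 and 1794 CPM against 3037 and 2920 CPM. The complex IV genes were closest: mt-Co1 had 5823 and 5383 CPM against 6528 and 5614 CPM. Malat1 took 2.79% and 2.58% of UMIs in cDC2-like cells. Without Malat1 and Neat1 in the scaling 16 nuclear members (20.8%) and 5 mitochondrial members were lower, against 31.1% of all genes. Without mitochondrial, ribosomal protein and immunoglobulin genes 38 (49.4%) and 10 were, against 44.6%. With the cluster led by Mmp12 and Mgl2 counted as cDC2-like, 20 nuclear members (26.0%) and 5 mitochondrial members were lower, against 32.6%, and 2 nuclear members higher.

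Between the 2 resting classes, cDC1-like cells had slightly more of the nuclear and less of the mitochondrial members than cDC2-like cells. The summed log2 ratio of cDC1-like over cDC2-like cells was 0.13 in L-cDC and 0.15 in M-cDC for nuclear members, and -0.35 and -0.23 for mitochondrial members. Of 77 nuclear members 2 were past 1.5-fold higher and none lower, against 8.61% and 20.3% of 5148 genes. Atp5g3, a gene of the ATP synthase c ring, had 216 and 244 CPM in cDC1-like cells, against 125 and 148 CPM in cDC2-like cells. Uqcrb, a subunit of complex III, had 351 and 329 CPM against 220 and 201 CPM. All 15 members of complex V with enough UMIs had a mean ratio above 1. All 13 mitochondrial members lay below 1, and mt-Nd2 and mt-Nd5 (15.4%) were past 1.5-fold lower, a smaller share than the 20.3% of all genes. The median log2 ratios were 0.12 for nuclear and -0.39 for mitochondrial members, against -0.21 for all genes. The gene mt-Nd5 had 275 and 263 CPM in cDC1-like cells, against 472 and 425 CPM in cDC2-like cells. Malat1 took 2.78% of UMIs in cDC1-like cells and 2.79% in cDC2-like cells of L-cDC, and 2.89% and 2.58% in M-cDC. With mitochondrial, ribosomal protein and immunoglobulin genes left out of the scaling, 7 nuclear members were higher and 1 mitochondrial member lower, and the same counts were found with the cluster led by Mmp12 and Mgl2 counted as cDC2-like.

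Cycling-like cells had the most of the nuclear members. Set against cDC2-like cells, 18 of 77 were past 1.5-fold higher and 1 lower, against 15.8% and 11.4% of 4943 genes, and the medians were 0.42 for the members and 0.01 for all genes. The higher ones included Cycs, with 354 CPM in L-cDC and 380 in M-cDC cycling-like cells, against 161 and 164 CPM in cDC2-like cells. Atp5o had 319 and 337 CPM against 160 and 171 CPM, and Cox5a had 604 and 617 CPM against 320 and 393 CPM. Set against cDC1-like cells, 7 were higher and 1 lower, against 22.1% and 6.27% of 5197 genes, so fewer of the members than of all genes passed. These were Ndufa5, Ndufab1, Ndufb7, Ndufa11 and Ndufv1 of complex I and Uqcr10 and Cyc1 of complex III. Cyc1 had 110 and 123 CPM in cycling-like cells, against 63.2 and 77.5 CPM in cDC1-like cells. Scaled without mitochondrial, ribosomal protein and immunoglobulin genes, none of these 7 passed 1.5-fold. The cycling-like class held both cDC1 and cDC2 markers, with Xcr1 at 138 and 173 CPM and Sirpa at 65.5 and 83.4 CPM.

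Cox7a2l was the 1 nuclear member that was lower in cycling-like cells, and it was so against both resting classes. Its protein helps complexes III and IV to join into supercomplexes. It had 357 CPM in L-cDC and 346 in M-cDC cycling-like cells, against 644 and 647 CPM in the cDC1-like class and 598 and 667 CPM in the cDC2-like class. In mature-like cells it had 542 and 550 CPM. Both cycling-like values lay below all values of the resting and mature-like classes. A mitochondrial member, mt-Nd5, was also past 1.5-fold lower in cycling-like than in cDC2-like cells, with 273 and 277 CPM against 472 and 425 CPM. In the cluster led by Cd209d no member passed 1.5-fold over cDC2-like cells in both libraries, against 6.45% of 5159 genes higher and 9.85% lower.

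Between L-cDC and M-cDC of the same class, the members as a whole differed little. The log2 ratio of the nuclear sum was 0.075 (0.068 to 0.082) in mature-like cells, 0.022 (0.010 to 0.034) in the cDC1-like class and 0.041 (0.017 to 0.065) in the cDC2-like class. For the mitochondrial sum it was 0.097 (0.092 to 0.103), -0.026 (-0.036 to -0.015) and 0.092 (0.075 to 0.109). None of 87 members with enough UMIs passed 1.5-fold in mature-like cells, against 1.80% of 4388 genes, and none of 89 in cDC1-like cells, against 1.14% of 4727 genes. In cDC2-like cells 1 of 90 passed, against 10.2% of 5536 genes. This was Sdhc, with 20.8 CPM in L-cDC and 38.1 in M-cDC, from 19 and 170 UMIs, a log2 ratio of -0.87 (-1.64 to -0.18). No member was past 1.5-fold lower with at most 5% mitochondrial UMIs per cell or with each library clustered alone, so Sdhc did not pass there. The sign of the nuclear sum in cDC2-like cells turned under 3 alternatives and that of the mitochondrial sum under 1. In the same class L-cDC also had more of the mature markers, 1992 CPM summed over 18 genes against 1557 CPM in M-cDC. No marker of that list was at 0 in either library, and its part in the result was not tested.

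By complex, in mature-like cells the mitochondrial part of complex I was the sum farthest from 1, with a share of 0.414% in L-cDC and 0.339% in M-cDC, a log2 ratio of 0.29 (0.28 to 0.31). The cluster led by Mucl1 and Calm4, with 355 L-cDC cells and 1 M-cDC cell, held the highest mature-like values of 6 of these 7 genes, all but mt-Nd6. Without it the shares were 0.382% and 0.338%, a log2 ratio of 0.18. All 12 mitochondrial members with enough UMIs lay above 1 in mature-like cells, with or without it, with a median of 0.19 with it, against -0.03 over all genes. The gene mt-Nd3, a membrane subunit of complex I, had 525 CPM in L-cDC and 360 in M-cDC mature-like cells, a log2 ratio of 0.55 (0.50 to 0.59), and 0.45 without that cluster. In cDC1-like cells it had 613 and 520.5 CPM, in cDC2-like cells 787 and 604 CPM, higher in L-cDC in each class. In cDC2-like cells 10 of 13 mitochondrial members lay above 1, and in cDC1-like cells 6 of 12. Above 1 in all 3 classes were 6, mt-Atp8, mt-Co1, mt-Cytb, mt-Nd3, mt-Nd4l and mt-Nd5, and none was below 1 in all 3.

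Small as they were, the nuclear members' ratios were ordered by the length of their coding sequence, a pattern looked for after the values had been seen. Members with coding sequences up to 411 bases leaned towards L-cDC and longer ones towards M-cDC. In mature-like cells 31 of 37 short members lay above 1 (median log2 ratio 0.19), against 13 of 38 longer members (median -0.04). In cDC1-like cells it was 30 of 37 (median 0.11) against 3 of 40 (median -0.16), and in cDC2-like cells 29 of 37 (median 0.17) against 14 of 40 (median -0.09). Across these nuclear genes, which share their libraries and depth, Spearman's rho between coding length and ratio was -0.58 in mature-like cells (n = 75), -0.69 in cDC1-like cells (n = 77) and -0.49 in cDC2-like cells (n = 77). Genes are not independent replicates, so these are descriptions. Over the other genes considered, rho was 0.03, 0.04 and 0.05 in the same order. Most of these have coding sequences longer than 411 bases, so their rho covers an unlike range of lengths. Of the other genes with coding sequences up to 411 bases, 230 of 369 lay above 1 in mature-like cells, 166 of 395 in the cDC1-like class and 208 of 407 in the cDC2-like class. Of the longer other genes, 1572 of 3874, 1244 of 4202 and 2280 of 4970 did. Median log2 ratios were 0.06, -0.03 and 0.01 for the shorter other genes and -0.04, -0.08 and -0.03 for the longer ones. Outside the members too, the shorter genes had the higher median in each class. In mature-like cells the longer members thus had a median near that of the longer other genes. Of 13 clusters with 50 or more cells in each library, 12 gave a negative rho for the nuclear members, with a median of -0.57. These clusters include the whole cDC1-like and cDC2-like classes and parts of the mature-like class. They thus partly repeat the values above and come from the same libraries. Over the other genes rho lay between -0.149 and 0.262 in these clusters and was negative in 7 of them. The exception among the nuclear values was the cluster led by Paqr3 and Uchl4, where 9 members had enough UMIs.

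**Figure D5:**
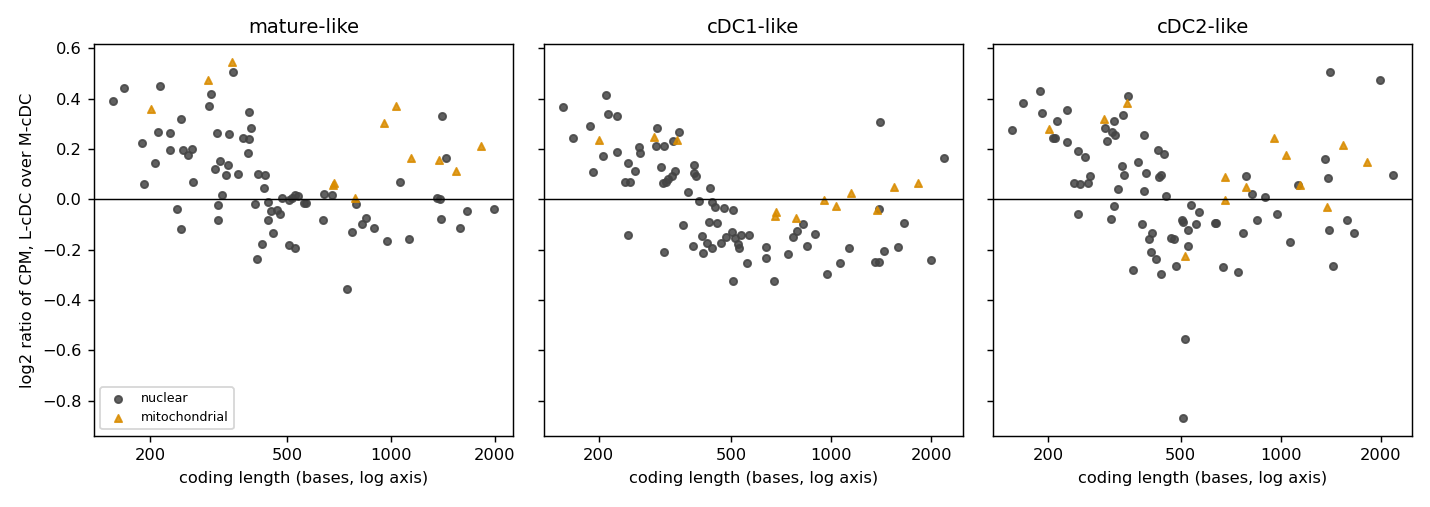
Log2 ratio of CPM in L-cDC over M-cDC against coding length (bases, log axis) for each member with enough UMIs in 3 classes, circles for nuclear and triangles for mitochondrial members. Short nuclear members lie mostly above 0, and longer ones mostly below 0 in cDC1-like cells and close to 0 in mature-like cells.

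Of 75 nuclear members measured in all 3 classes, 29 (38.7%) were higher in L-cDC in every class and 21 (28.0%) lower, while among 3438 other genes 10.6% were higher and 28.1% lower in all 3. The classes share their libraries, so the 3 values of a gene are not independent. The first set had a median coding length of 297 bases and the second of 525 bases. Atp5e, the epsilon subunit of the ATP synthase with 156 coding bases, had 610 CPM in L-cDC and 465 in M-cDC mature-like cells, 828 and 642 CPM in cDC1-like cells, and 707 and 585 CPM in cDC2-like cells. Atp5k, a membrane subunit of the same enzyme, had 181 and 133 CPM, 207 and 163 CPM, and 162 and 131 CPM in those classes. Uqcr11 had 93.9 and 69.1 CPM, 206 and 174 CPM, and 169 and 130 CPM. All 3 were thus higher in L-cDC throughout.

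The second set was about the same share of the nuclear members as of the other genes, so its size does not set the members apart. Its members come from several complexes, among them Atp5b of complex V, Ndufv2 of complex I and Cox5a of complex IV. Atp5b, the catalytic beta subunit with 1587 coding bases, had 241 CPM in L-cDC and 261 in M-cDC mature-like cells, 380 and 433 CPM in cDC1-like cells, and 340 and 360 CPM in cDC2-like cells. Ndufv2 had 175 and 224 CPM, 117 and 136 CPM, and 131 and 160 CPM in those classes. Cox5a had 872 and 922 CPM, 364 and 417 CPM, and 320 and 393 CPM. All 3 were lower in L-cDC in each class, within 1.5-fold. Without the cluster led by Mucl1 and Calm4, Cox5a had 952 CPM in L-cDC and 923 in M-cDC mature-like cells. Its log2 ratio there turned from -0.08 to 0.05, while Atp5b and Ndufv2 stayed lower in L-cDC. Ribosomal protein genes took 18.1% and 16.9% of UMIs in mature-like cells, 30.6% and 27.8% of those in cDC1-like cells and 25.5% and 24.4% of those in cDC2-like cells, more in L-cDC each time. Their part in the pattern was not tested.

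Apart from Sdhc in cDC2-like cells, the members with the highest and lowest ratios of each complex stayed within 1.5-fold in the 3 classes. In mature-like cells Ndufa5 had the highest ratio of complex I, a log2 ratio of 0.51 (0.31 to 0.70), and Ndufv2 the lowest, -0.35 (-0.42 to -0.29). Without the cluster led by Mucl1 and Calm4 the ratio of Ndufa5 was 0.32 and that of Ndufv2 -0.24. In cDC1-like cells these were Ndufa1 at 0.42 (0.27 to 0.56) and Ndufs7, a core iron-sulfur subunit, at -0.33 (-0.51 to -0.14). In cDC2-like cells they were Ndufv3, an accessory subunit, at 0.50 (0.16 to 0.84) and Ndufa8 at -0.56 (-0.86 to -0.26). Cox6c had the highest ratio of complex IV in mature-like and cDC1-like cells, with 503 CPM in L-cDC and 419 in M-cDC, and 594 and 472 CPM. In cDC2-like cells it was Cox7c, with 645 and 478 CPM. Cycs had ratios of -0.02 (-0.13 to 0.08) in the mature-like class, -0.21 (-0.33 to -0.10) in the cDC1-like class and -0.03 (-0.29 to 0.23) in the cDC2-like class.

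Several subunits exist as isoforms of which 1 is used in most tissues and another in muscle, lung or testis. The common forms Cox4i1, Cox6a1, Cox6b1, Cox7a2, Cox7b, Cox8a and Ndufa4 were measured in all classes, while Cox4i2 and Ndufa4l2 stayed below 1 CPM in the 5 dendritic cell classes. Cox7a1, the form of heart and skeletal muscle, had at most 1.69 CPM. Cox6b2, the form of testis, had 18.0 CPM in L-cDC and 17.7 in M-cDC in the cluster led by Cd209d, and 4.31 and 3.18 CPM in mature-like cells. A Cox6b2 UMI was found in 16.9% and 15.6% of cells of that cluster, and in 18.7% and 13.4% of cycling-like cells. It was found in 7.94% and 6.16% of cDC2-like, 4.78% and 5.21% of cDC1-like and 3.32% and 2.20% of mature-like cells. Median UMIs per cell differ between these classes. How reads shared with pseudogenes or close paralogs, such as the 3 c ring genes, were assigned is not given in the sources used here, so low counts of such genes are uncertain.

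Cox6a2, the muscle form of subunit 6a, was the 1 isoform with a large difference between libraries. In the cluster led by Cd209d it had 23.6 CPM in L-cDC and 4.09 in M-cDC, a log2 ratio of 2.53, past 1.5-fold in a class where 11.8% of 5244 genes were. It was the 1 member that passed there, and none with enough UMIs passed in cycling-like cells, against 10.9% of 5575 genes. The UMIs lay in few cells: 59 UMIs in 15 of 189 L-cDC cells, of which 1 cell held 19, and 6 UMIs in 4 of 135 M-cDC cells. Median depths were 12486 and 10540 UMIs per cell. The 12 markers of plasmacytoid dendritic cells summed to 2440 CPM in L-cDC and 1678 in M-cDC in this cluster, with 0 and 2 of them at 0, and Siglech was at 143 and 43.6 CPM. In cycling-like cells 43 UMIs fell in 3 of 75 L-cDC cells, 34 of them in 1 cell, against 1 UMI in 269 M-cDC cells. This was under the limit of 50 UMIs over both libraries, so Cox6a2 was not considered there. Those plasmacytoid markers summed to 802 and 249 CPM there, with 1 at 0 in each library, and the 18 mature markers to 2949 and 762 CPM, with none at 0. The part of these markers in the Cox6a2 values was not tested. The NK cell-like cluster of L-cDC held 70 UMIs in 5 of 199 cells, 41 of them in 1 cell, at a median depth of 8138 UMIs. In cDC2-like cells 9 UMIs lay in 7 of 126 L-cDC cells and 7 UMIs in 6 of 698 M-cDC cells, at median depths of 7303 and 6279 UMIs. In mature-like cells a UMI was found in 7 of 2498 cells of L-cDC and in 0 of 2869 of M-cDC, at median depths of 8572 and 7173 UMIs.

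Genes that build, feed or regulate the chain were described from 5 lists, beside all genes, of which 25.1% were higher and 30.7% lower in mature-like than in cDC1-like cells, with a median of -0.10. In mature-like over cDC1-like cells 5 of 25 assembly factors with enough UMIs were past 1.5-fold higher and 7 lower, with a median log2 ratio of -0.12, near those of all genes. They include factors of complex II, 3 of whose 4 subunits were lower: Sdhaf1 and Sdhaf2 were higher, while Sdhaf4 had 24.7 CPM in L-cDC and 23.6 in M-cDC mature-like cells, against 33.1 and 35.0 CPM in cDC1-like cells, within 1.5-fold. Sdhaf1, which guides the iron-sulfur subunit, had 174 CPM in L-cDC and 193 in M-cDC mature-like cells, against 21.6 and 24.999 CPM in cDC1-like cells and against 98.7 and 83.3 CPM in cDC2-like cells. Sdhaf2, needed for flavin attachment to Sdha, had 49.9 and 51.2 CPM against 21.4 and 22.6 CPM in cDC1-like cells. Cmc2, linked to complex IV assembly, had 139 and 202 CPM against 23.1 and 23.5 CPM, and Tmem70, an ATP synthase assembly factor, had 77.8 and 88.9 CPM against 32.2 and 36.6 CPM. The complex I assembly factors Ndufaf4 and Ndufaf6 were lower, and Ndufaf4 had 6.53 and 3.64 CPM against 28.4 CPM in both cDC1-like values.

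None of 16 measured genes of pyruvate dehydrogenase and the citric acid cycle was higher in mature-like than in cDC1-like cells and 8 were lower, with a median of -0.67. Idh3a, a subunit of NAD-dependent isocitrate dehydrogenase, had 3.78 and 1.89 CPM in mature-like cells of L-cDC and M-cDC, against 25.2 and 30.6 CPM in cDC1-like cells. Fh1, fumarate hydratase, had 10.97 and 9.94 CPM against 48.6 and 50.8 CPM, while citrate synthase, Cs, had 54.2 and 57.2 CPM against 70.5 and 69.5 CPM. Set against cDC2-like cells 11 of 17 were lower and none higher, with a median of -1.13, where all genes had 35.2% lower and a median of -0.38. Mdh2, malate dehydrogenase, had 140 and 147 CPM in mature-like cells, against 610 and 990 CPM in cDC2-like cells.

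Of 67 measured mitochondrial ribosomal proteins, 38 were lower and 3 higher in mature-like than in cDC1-like cells, with a median of -0.76. Of all genes 30.7% were lower and 25.1% higher, with a median of -0.10. Mrps28, of the small subunit, had 4.62 and 3.68 CPM in mature-like cells, against 50.9 and 64.0 CPM in cDC1-like cells, while Mrpl14, of the large subunit, had 310 and 343 CPM against 103 and 109 CPM. Of 8 genes for ADP and ATP exchange and related transport, 1 was lower, Slc25a5, the ADP/ATP carrier, with 147 and 146 CPM against 351 and 386 CPM. Atpif1, the inhibitor of the ATP synthase, had 644 and 667 CPM in mature-like cells, against 336 and 285 CPM in cDC2-like cells. Among 5 measured regulators, Tfam, which packages mitochondrial DNA, was lower with 18.7 and 15.1 CPM against 29.5 and 25.4 CPM in cDC1-like cells, and Gabpb1, a subunit of GABP, was higher with 24.5 and 25.3 CPM against 10.2 and 8.85 CPM. Between L-cDC and M-cDC, between 0 and 3 genes of a list passed 1.5-fold in mature-like, cDC1-like and cDC2-like cells. Of all genes considered 1.80%, 1.14% and 10.2% did, in that order. The lists differ in size, so these counts do not show whether a list lay above or below that share.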

How the data were processed

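Single cells of 2 libraries, 1 of L-cDC and 1 of M-cDC, had been captured with a 10x 3' kit. The deposited values are raw UMI counts per gene and cell, made by the authors with Cell Ranger 6.1.2 per the file headers, on GRCm38 per the submitters' processing notes. The members and lists were chosen with earlier results of these data known, and names of clusters rest on thresholds set after seeing the data.

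Cells with 500 or more genes and at most 10% mitochondrial UMIs were kept, doublets called by Scrublet were removed with 1 threshold for both libraries, and cells were clustered jointly with Leiden (resolution 1.0, 30 components, 15 neighbours) on 2000 variable genes that held no member (Python 3.11.15, scanpy 1.11.5). UMIs were summed per class and library and given per 1000000 UMIs (CPM). Ratios carry exact conditional binomial 95% intervals, which cover counting error only. A gene was considered with 20 CPM in the higher group and 50 UMIs over both, and counted past 1.5-fold, for pairs of classes in the same direction in both libraries. No replicate exists, so no test was made. Named genes are the mitochondrial members, complex II, Cyc1, Cycs, isoform pairs, members past 1.5-fold and the highest and lowest of each complex. Further members, promoters and list genes were chosen after their values were seen. Coding lengths came from GENCODE vM21 and promoters from RefSeq GRCm38.p6. The computations were tested on simulated data. Alternatives changed the scaling, cell filters, doublets, clustering, depth and low-count limits.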

Additional observations from a re-analysis of the deposited data

How the results depend on the processing

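Values are log2 ratios of summed CPM. As reported, L-cDC over M-cDC was 0.0753 for nuclear and 0.0975 for mitochondrial members in the mature-like class, 0.022 and -0.0256 in the cDC1-like class and 0.041 and 0.0919 in the cDC2-like class. Mature-like over cDC1-like cells was -0.375 for nuclear and -0.144 for mitochondrial members as a mean of the libraries, and over cDC2-like cells -0.233 and -0.433. The means of mature-like over cDC1-like and over cDC2-like cells kept their sign under every alternative run, but in L-cDC alone the mitochondrial value over cDC1-like cells turned to 0.01 without Malat1 and Neat1, against -0.08 as reported. In sign, 6 values of L-cDC over M-cDC turned, and the cause was not tested. The nuclear value in cDC2-like cells turned to -0.0214 with equal weight per cell, to -0.0325 with no mitochondrial limit and to -0.0197 with the cluster led by Mmp12 and Mgl2 counted as cDC2-like. The mitochondrial value turned to -0.0278 in cDC2-like cells with each library clustered alone, and in cDC1-like cells to 0.0336 without mitochondrial, ribosomal protein and immunoglobulin genes in the scaling and to 0.0126 with no mitochondrial limit. Without Malat1 and Neat1, nuclear values were 0.0633 for L-cDC over M-cDC in mature-like cells, -0.277 for mature-like over cDC1-like and -0.133 over cDC2-like cells, and mitochondrial ones 0.0855, -0.046 and -0.333. Without mitochondrial, ribosomal protein and immunoglobulin genes, the nuclear values were 0.0812 in cDC1-like, 0.0682 in cDC2-like and 0.101 in mature-like cells, -0.612 over cDC1-like and -0.395 over cDC2-like cells, and the mitochondrial ones 0.119 in cDC2-like and 0.123 in mature-like cells, -0.38 and -0.595. With resolution 2.0, mitochondrial values were 0.126 in cDC2-like cells and -0.477 over cDC2-like cells. With at least 1000 genes, they were 0.103 in mature-like cells, -0.113 over cDC1-like and -0.368 over cDC2-like cells, and nuclear values were 0.0887 in cDC2-like cells and -0.416 over cDC1-like cells. With at most 5% mitochondrial UMIs, mitochondrial values were -0.014 in cDC1-like and 0.0887 in mature-like cells and -0.282 over cDC1-like cells, and nuclear ones 0.0851 in cDC2-like and 0.0845 in mature-like cells and -0.39 over cDC1-like cells. With doublets kept, mitochondrial values were -0.0507, 0.121 and 0.0843 in cDC1-like, cDC2-like and mature-like cells and -0.108 and -0.38 over the cDC1-like and cDC2-like classes, and nuclear ones 0.0379, 0.0859, 0.068, -0.345 and -0.201 in the same order. Thinned to 3000 UMIs a cell, mitochondrial values were -0.0519 and 0.142 in the cDC1-like and cDC2-like classes, -0.156 and -0.47 over them, and nuclear ones 0.00943 in cDC2-like and 0.0666 in mature-like cells, -0.348 and -0.202. With each library clustered alone, mitochondrial values were -0.129 and -0.372 over the cDC1-like and cDC2-like classes, and nuclear ones 0.0928 in cDC2-like cells, -0.387 and -0.213. With equal weight per cell, mitochondrial values were -0.0636, 0.14 and 0.105 in the 3 classes, -0.165 and -0.521, and nuclear ones 0.0408 in cDC1-like and 0.0827 in mature-like cells, -0.33 and -0.106. With no mitochondrial limit, mitochondrial values were 0.457 in cDC2-like cells, -0.242 and -0.8, and nuclear ones -0.35 and -0.143. With the members among the variable genes, mitochondrial values were 0.142 in cDC2-like cells, -0.136 and -0.395, and nuclear ones 0.0822 in cDC2-like cells, -0.388 and -0.214. Without the mature-like cluster of lowest Malat1, mitochondrial values were 0.115 in mature-like cells and -0.152 over cDC1-like cells, and nuclear ones 0.115, -0.441 and, over cDC2-like cells, -0.299. Without the cluster led by Mucl1 and Calm4, mature-like values were 0.0842 for mitochondrial and 0.087 for nuclear members, and 0.18 in place of 0.29 for mitochondrial complex I, and 41 nuclear members were lower than in cDC1-like and 28 lower than in cDC2-like cells. With the cluster led by Mmp12 and Mgl2 as cDC2-like, the values over cDC2-like cells were -0.363 and -0.151. The alternatives on Malat1 and Neat1, on the 2 mature-like clusters and on the Mmp12 cluster were chosen after seeing the data. Members past 1.5-fold between L-cDC and M-cDC in cDC2-like cells numbered 1 as reported, 2 with resolution 2.0, at most 5% mitochondrial UMIs, doublets kept, the members among the variable genes or the Mmp12 cluster added, 3 when thinned, 5 with no mitochondrial limit and 0 with each library clustered alone. With at most 5% mitochondrial UMIs both were higher in L-cDC, and Sdhc, lower as reported, was not among them. In the cDC1-like class members past 1.5-fold numbered 0, and 2 when thinned, and in mature-like cells 0 throughout. Lower limits on counts moved none of these. No paired analysis was possible because each group has 1 library and no result comes from a test. Depth limits single members most in cDC2-like and cycling-like L-cDC cells, where few cells stand behind a value.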

Other observations

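Barcodes removed for over 10% mitochondrial UMIs had a median of 1443 UMIs in L-cDC and 1152 UMIs in M-cDC. In them nuclear members took 0.484% and 0.442% of UMIs, mitochondrial members 20.5% and 20.7%, and Malat1 16.3% and 16.1%. In kept cells nuclear members took 1.71% and 1.73%, mitochondrial members 3.08% and 2.99%, and Malat1 6.62% and 5.76%.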
